A study of Mus musculus with 6 samples.

Results

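The 37 genes described here belong to sterol and fatty acid synthesis, which SREBP transcription factors control, or to its regulation and to sterol transport. Their expression was compared between fibroblasts without and with the adaptor protein FHL2. The genes were taken from a list of gene symbols. Each gene was read by the probe set annotated to its symbol alone that had the highest mean over all 6 arrays. Of the 37 listed genes 36 were measured, among 18193 genes on the arrays, and Acat2 was not analysed here. The sterol arm held 18 measured genes, the fatty acid arm 11, the regulators 5 and sterol transport 2. RNA came from 3 FHL2-/- clones (E, H, J) and 3 wild type, or WT, clones (E, F, I) of mouse embryonic fibroblasts, all of which had become immortal spontaneously in culture, with 1 Affymetrix array for each clone. Whether each clone started from its own embryo is not stated in the labels, and p-values therefore measure only the spread between clones. The labels also give no age, sex or mouse strain, and name no treatment. A shared clone letter pairs nothing between the genotypes.

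SREBPs are made as precursors held in the endoplasmic reticulum by the escort protein Scap and the Insig proteins. When membrane sterol is low, Scap carries the precursor to the Golgi, where proteases release the active factor. Srebf2 mainly drives the enzymes of cholesterol synthesis, and the main product of Srebf1 drives those of fatty acid synthesis. The sterol arm starts with the mevalonate steps, passes through squalene and lanosterol, and ends with the reactions that turn lanosterol into cholesterol. Cultured fibroblasts can make their own cholesterol for their membranes, and side branches of the same route supply the prenyl groups that anchor small GTPases.

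All levels are log2 intensities as the authors normalized them, and all differences are knockout minus wild type on that scale. A gene is said to rise or fall where limma's p, adjusted by Benjamini-Hochberg over all 18193 genes, lay under 0.05. Fhl2 was read at 6.01 (clone E), 6.44 (H) and 6.57 (J) in knockout cells, against 9.88 (E), 8.57 (F) and 9.64 (I) in WT cells, and fell by 3.02 (SE 0.35, limma adjusted p = 0.00400); the labels do not say which part of the gene was deleted. Among the knockout clones, H was unlike the other two. Across genes it correlated with E at 0.964 and with J at 0.968, while E and J correlated at 0.991, and it was the only clone with high Xist (9.82, against 4.69 to 5.11 elsewhere). Many differences are therefore also given without it. Clone H was singled out from these same data, and leaving it out narrows the spread among knockout clones. The adjusted p-values without it are therefore descriptive. Array medians ran from 4.52 to 4.54 in knockout clones and from 4.44 to 4.46 in WT clones, and the 3′ minus 5′ difference of Gapdh from -0.119 to -0.045 in knockout clones and from -0.041 to 0.052 in WT clones. That of actin ran from 0.103 to 0.235 in knockout clones and from 0.0929 to 0.133 in WT clones, with overlap. The part of these shifts in the results was not tested. All 9 fibroblast markers lay between percentiles 96.5 and 100 of gene levels; Pdgfra rose by 1.76 (limma adjusted p = 0.0247), Thy1 fell by 1.34 (0.0262) and Pdgfrb fell by 0.64 (0.0321). Adipocyte markers, of which 6 of 8 were measured, had summed log2 levels of 22.0 to 23.0 in knockout clones and 23.7 to 25.04 in WT clones. Fabp4 alone passed and fell by 1.93 (limma adjusted p = 0.0217), while 3 of the 6 differences were above 0, and the list's median was 0.04. Adipoq was near the floor of every array (2.71 to 2.79 in knockout and 2.74 to 2.84 in WT clones). Summed epithelial markers (5 of 5 measured) were 22.4 to 22.8 in knockout clones and 25.7 to 27.0 in WT clones, with Epcam and Krt19 passing in opposite directions. Krt19 differed by -3.05, while 3 of the 5 differences were above 0, and the list's median was 0.02. Summed endothelial markers (4 of 4) were 18.4 to 21.5 in knockout clones and 14.3 to 16.8 in WT clones, with Tek passing alone. Tek differed by 4.27, 3 of the 4 differences were above 0, and that list's median was 0.31. Macrophage, hepatocyte and muscle lists had 0 members that passed the limma test. In the macrophage list, with a median of 0.08, Lyz2 had the smallest unadjusted p and differed by 1.14 (limma adjusted p = 0.127). In such bulk RNA, fewer cells of a type and less RNA per cell cannot be told apart, and the part of these other cell types in the results was not tested.

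Of the 36 measured genes 4 rose in knockout clones (Tm7sf2, Dhcr7, Insig1 and Acly), 4 fell (Sc5d, Ggps1, Fdft1 and Elovl5), and 28 did not pass. The 8 that passed are 22.2% of the measured genes, beside 19.0% of all genes in the same limma fit, where 9.04% of genes rose and 10.0% fell. The share called among the 36 was thus near the background in both directions. Differences were above 0 in 16 and below 0 in 20 of them, with a median of -0.07, while the median over all genes was 0.04. Values of the genotypes did not overlap in 14 of the 36, which is 38.9%, and the share over all genes was also 38.9%. All 36 were expressed above the median gene, and 28 lay above the 75th percentile. Of the 8 genes that passed, Tm7sf2 and Sc5d changed by more than 2-fold, and these same 2 passed whichever clone was left out.

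**Figure D1:**
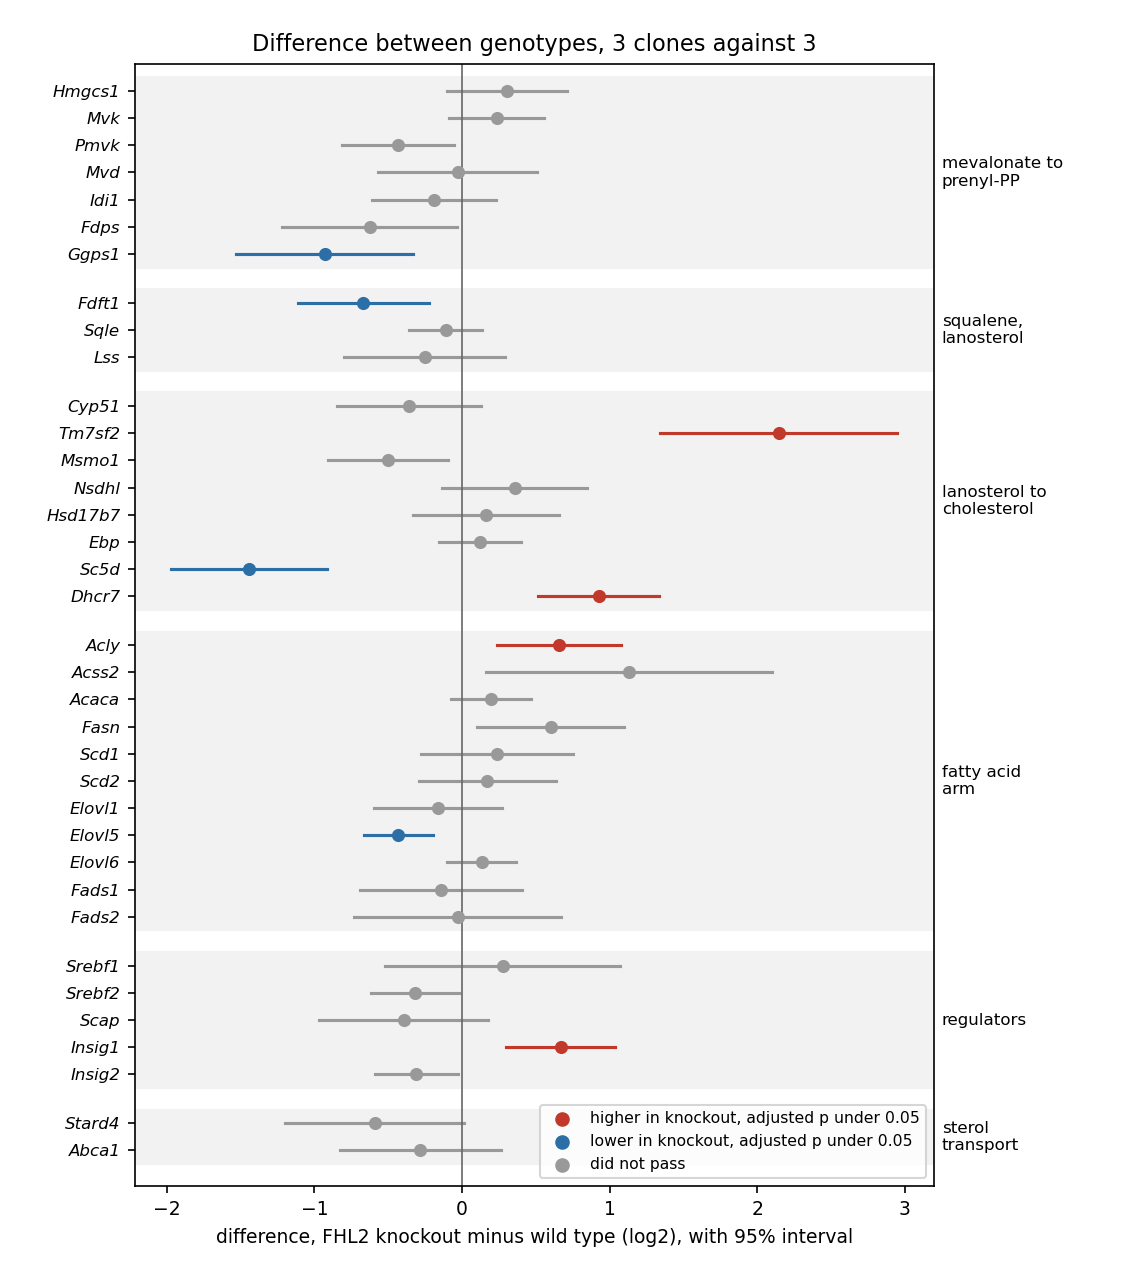
Difference in log2 level, knockout minus wild type, for the 36 measured genes (points, with the 95% interval of the limma fit as bars), grouped by role. Tm7sf2 at 2.15 and Sc5d at -1.44 lie farthest from 0, and both catalyse late steps of cholesterol synthesis.

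Promoter letters were read for the members that the RefSeq promoter table (GRCm38.p6) lists, 30 of the 37 with 39 starts between them. The 250 bases upstream of each start were searched on both strands. The motifs were TCACNCCAC (a form of the sterol regulatory element that SREBPs bind), CACGTG (the E-box, which SREBPs and Usf factors can bind), CCAAT (bound by NF-Y, a usual partner of SREBPs) and GGGCGG (bound by Sp1). None of these strings contains another, though neighbouring sites can overlap. TCACNCCAC stood in 1 of the 39 member promoters, that of Hmgcs1, and in 1.05% of the 32851 promoters in the table. CACGTG stood in 7 of 39 and in 6.02% of all promoters. CCAAT was held by 24 of 39 member promoters and 33.8% of all, and GGGCGG by 28 of 39 and 32.7% of all. By arm, CCAAT stood in 15 of 19 sterol promoters and 4 of 9 fatty acid promoters, and GGGCGG in 15 of 19 and 5 of 9. A match is a description of letters and shows no binding. The windows below cover the 170 bases just upstream of the start, 5′ to 3′ on the gene's strand, with every searched motif on either strand in capitals. They are shown because 6 of these genes passed the test in knockout clones and Hmgcs1 alone holds the sterol regulatory element form, while Dhcr7 has 3 listed starts and is not printed.
Tm7sf2 (chr19:6067851-6068020, minus strand, rose): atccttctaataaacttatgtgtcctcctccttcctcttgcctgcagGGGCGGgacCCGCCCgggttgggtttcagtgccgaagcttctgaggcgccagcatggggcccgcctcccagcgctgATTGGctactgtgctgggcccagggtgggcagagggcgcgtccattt
Insig1 (chr5:28071242-28071411, plus strand, rose): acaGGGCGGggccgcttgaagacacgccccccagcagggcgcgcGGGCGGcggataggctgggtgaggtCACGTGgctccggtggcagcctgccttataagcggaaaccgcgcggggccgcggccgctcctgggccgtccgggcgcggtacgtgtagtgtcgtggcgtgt
Acly (chr11:100528001-100528170, minus strand, rose): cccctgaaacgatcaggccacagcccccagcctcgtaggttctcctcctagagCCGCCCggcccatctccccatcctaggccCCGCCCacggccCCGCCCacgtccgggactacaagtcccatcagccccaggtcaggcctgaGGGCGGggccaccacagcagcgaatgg
Sc5d (chr9:42264301-42264470, minus strand, fell): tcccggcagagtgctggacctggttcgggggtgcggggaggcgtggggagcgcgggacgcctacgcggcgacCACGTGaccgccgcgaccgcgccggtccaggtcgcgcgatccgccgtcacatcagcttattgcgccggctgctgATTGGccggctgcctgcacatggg
Ggps1 (chr13:14063489-14063658, minus strand, fell): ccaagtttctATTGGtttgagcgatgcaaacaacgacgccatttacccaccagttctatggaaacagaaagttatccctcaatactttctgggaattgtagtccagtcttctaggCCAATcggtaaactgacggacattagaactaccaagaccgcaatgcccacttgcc
Elovl5 (chr9:77917195-77917364, plus strand, fell): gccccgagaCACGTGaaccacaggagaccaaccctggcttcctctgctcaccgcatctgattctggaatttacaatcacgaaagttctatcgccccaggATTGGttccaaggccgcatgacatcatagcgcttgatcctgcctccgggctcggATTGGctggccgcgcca
Hmgcs1 (chr13:119690181-119690350, plus strand, did not pass): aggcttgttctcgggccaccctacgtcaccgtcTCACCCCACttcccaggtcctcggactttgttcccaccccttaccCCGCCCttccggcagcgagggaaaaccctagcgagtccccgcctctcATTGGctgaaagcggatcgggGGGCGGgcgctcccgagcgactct
In these windows GGGCGG stands in those of Tm7sf2, Insig1, Acly and Hmgcs1 and not in those of Sc5d, Ggps1 and Elovl5, although Sc5d holds it farther upstream in the bases searched. With 7 chosen windows this is a description only. The E-box CACGTG stands in the window of Insig1, which rose, and in those of Sc5d and Elovl5, which fell. A CCAAT box (read as ATTGG on the other strand) lies close to the start in both Tm7sf2 and Sc5d, whose levels moved in opposite directions. The windows of Acly and Insig1 hold GGGCGG sites and no CCAAT, although Insig1 holds a CCAAT farther upstream in the bases searched. A large part of the Ggps1 window, from chr13:14063566 to its end, lies inside the annotated gene, which has another start farther upstream. The CCAAT of that window at -55 lies in this part.

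Of the 7 measured genes of the mevalonate steps, Ggps1 fell in knockout clones and 6 did not pass. Ggps1, which makes geranylgeranyl diphosphate for protein prenylation, was read at 5.91 (clone E), 6.38 (H) and 5.70 (J) in knockout cells, against 6.80 (E), 6.63 (F) and 7.35 (I) in WT cells. All knockout values lay below all WT values, with the smallest gap between knockout clone H and WT clone F. Ggps1 fell by 0.93 (SE 0.25, limma adjusted p = 0.0464), and its other 3 probe sets differed by -0.62, -1.19 and -1.43. The call rests on the full set of clones or on leaving out knockout clone H (-1.12, limma adjusted p = 0.0135). Leaving out any other single clone gave an adjusted p of 0.0664 to 0.140.

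Fdps, which makes the farnesyl diphosphate that feeds both squalene and Ggps1, was read at 9.72 (clone E), 10.60 (H) and 9.83 (J) in knockout cells, against 10.87 (E), 10.53 (F) and 10.63 (I) in WT cells. Knockout clones E and J lay below every WT clone, while clone H lay inside the WT range. The difference was -0.62 (SE 0.25, limma adjusted p = 0.133), and -0.90 without clone H (adjusted p = 0.0055). Pmvk, the second kinase of the route, showed the same arrangement at 6.60 (clone E), 7.05 (H) and 6.65 (J) in knockout cells, against 7.35 (E), 7.02 (F) and 7.23 (I) in WT cells. Its difference was -0.43 (limma adjusted p = 0.110), and -0.57 without clone H (adjusted p = 0.0233). Idi1, the isomerase that makes the starter unit for prenyl chains, spanned 8.32 to 8.95 in knockout cells and 8.72 to 8.80 in WT cells. Clones E and J lay below the WT range and clone H above it, and Idi1 differed by -0.19 with all clones and fell by 0.38, at the threshold, without clone H (limma adjusted p = 0.0499). Hmgcs1, which makes HMG-CoA at the entry of the route, was read at 10.83 (clone E), 11.16 (H) and 10.84 (J) in knockout cells, against 10.51 (E), 10.46 (F) and 10.94 (I) in WT cells. These values overlapped, and the difference was 0.31 (95% interval -0.10 to 0.71). Mvk, the first kinase, spanned 7.83 to 8.07 in knockout cells and 7.53 to 7.89 in WT cells, and Mvd spanned 7.69 to 8.22 in knockout cells and 7.52 to 8.18 in WT cells, both with overlap. Mvk and Mvd, which decarboxylates the phosphorylated product, differed by 0.23 and -0.03, and their intervals (-0.09 to 0.56 and -0.57 to 0.51) held differences below 1.5-fold either way.

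Of the 3 genes from squalene to lanosterol, Fdft1 fell, narrowly, and the other two did not pass. Fdft1 is squalene synthase, the enzyme that commits farnesyl units to sterols, and was read at 9.16 (clone E), 9.74 (H) and 9.15 (J) in knockout cells, against 10.12 (E), 10.02 (F) and 9.91 (I) in WT cells. Knockout clones E and J lay well below every WT clone, and clone H lay just below the lowest of them, WT clone I. Fdft1 fell by 0.67 (SE 0.18, limma adjusted p = 0.04997, at the edge of the threshold). Without clone H the difference was -0.86 (adjusted p = 0.0035), and without any other single clone the adjusted p was 0.0978 to 0.154. Its probe sets disagreed: 1 other differed by -0.79, while those of low signal differed by 0.65, which passed the other way when every probe set was tested, and by 0.35. The mean over all 4 probe sets differed by -0.12. Sqle, the epoxidase that follows, was read at 10.19 (clone E), 10.34 (H) and 10.12 (J) in knockout cells, against 10.35 (E), 10.37 (F) and 10.26 (I) in WT cells. These values differed little, with a difference of -0.11 and an interval of -0.36 to 0.14. Lss, which closes the ring to lanosterol, was read at 7.77 (clone E), 8.38 (H) and 7.84 (J) in knockout cells, against 8.48 (E), 8.39 (F) and 7.88 (I) in WT cells. The genotypes overlapped, with a difference of -0.25 (limma adjusted p = 0.495). It turned positive (0.02) when probe sets with names ending in _x_at, _s_at or _a_at were left out.

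The steps from lanosterol to cholesterol held the genes with the largest differences, in both directions. Tm7sf2, a sterol reductase that acts on the product of Cyp51, was read at 7.22 (clone E), 8.32 (H) and 7.80 (J) in knockout cells, against 5.41 (E), 6.15 (F) and 5.33 (I) in WT cells. Every knockout clone lay above every WT clone by more than 1 log2 unit. Tm7sf2 averaged 7.78 ± 0.550 in knockout clones and 5.63 ± 0.452 in WT clones (SD, n = 3 each) and rose by 2.15 (SE 0.33, limma adjusted p = 0.00890), or 4.42-fold. It has 1 probe set, and it passed in all 14 alternative settings.

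Sc5d, the desaturase that makes the substrate of Dhcr7, moved the other way and was read at 8.28 (clone E), 8.90 (H) and 8.10 (J) in knockout cells, against 9.88 (E), 10.01 (F) and 9.72 (I) in WT cells. Clone H was the highest of the knockout clones here too, yet it lay well below the lowest WT clone. Sc5d fell by 1.44 (SE 0.22, limma adjusted p = 0.00833), or 2.72-fold, and passed whichever clone was left out. Its other 2 probe sets differed by -0.01 and -0.21, and with probe sets averaged the difference was -0.55 (adjusted p = 0.0978). The fall therefore rests on the most strongly hybridised probe set.

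Dhcr7, the reductase of the final step to cholesterol, was read at 8.36 (clone E), 8.78 (H) and 8.60 (J) in knockout cells, against 7.65 (E), 7.90 (F) and 7.40 (I) in WT cells. All knockout values lay above all WT values. Dhcr7 rose by 0.93 (SE 0.17, limma adjusted p = 0.0147), or 1.90-fold. It did not pass when knockout clone J was left out (limma adjusted p = 0.0559) or when WT clone E was (0.0593), with the difference at 0.91 and 0.92.

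The genes that strip methyl groups from lanosterol, ahead of Sc5d and Dhcr7, did not pass with all clones. Cyp51, which removes the first methyl group of lanosterol, was read at 9.01 (clone E), 9.70 (H) and 9.03 (J) in knockout cells, against 9.57 (E), 9.71 (F) and 9.53 (I) in WT cells. Clones E and J lay below the WT range and clone H inside it, and the difference was -0.36, or -0.59 without clone H (limma adjusted p = 0.0121). Msmo1, the methyl sterol oxidase, was read at 9.90 (clone E), 10.24 (H) and 9.86 (J) in knockout cells, against 10.60 (E), 10.68 (F) and 10.22 (I) in WT cells. Here too clones E and J lay below the WT range and clone H at its lower end. The difference was -0.50 (limma adjusted p = 0.0910), and -0.62 without clone H (adjusted p = 0.0351). Nsdhl, which works next to it, was read at 9.36 (clone E), 9.38 (H) and 9.85 (J) in knockout cells, against 9.34 (E), 9.36 (F) and 8.83 (I) in WT cells. The genotypes were barely separated, with knockout clone E level with the highest WT clone. Nsdhl was the single gene of the sterol arm in which clone H was not the highest knockout clone, and its difference was 0.36 (95% interval -0.14 to 0.85). Hsd17b7, a ketoreductase of the same steps, spanned 7.91 to 8.30 in knockout cells and 7.51 to 8.17 in WT cells, and differed by 0.16. Ebp, the sterol isomerase, spanned 8.52 to 8.81 in knockout cells and 8.43 to 8.60 in WT cells, and differed by 0.12. Both overlapped between genotypes and were highest in clone H.

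**Figure D2:**
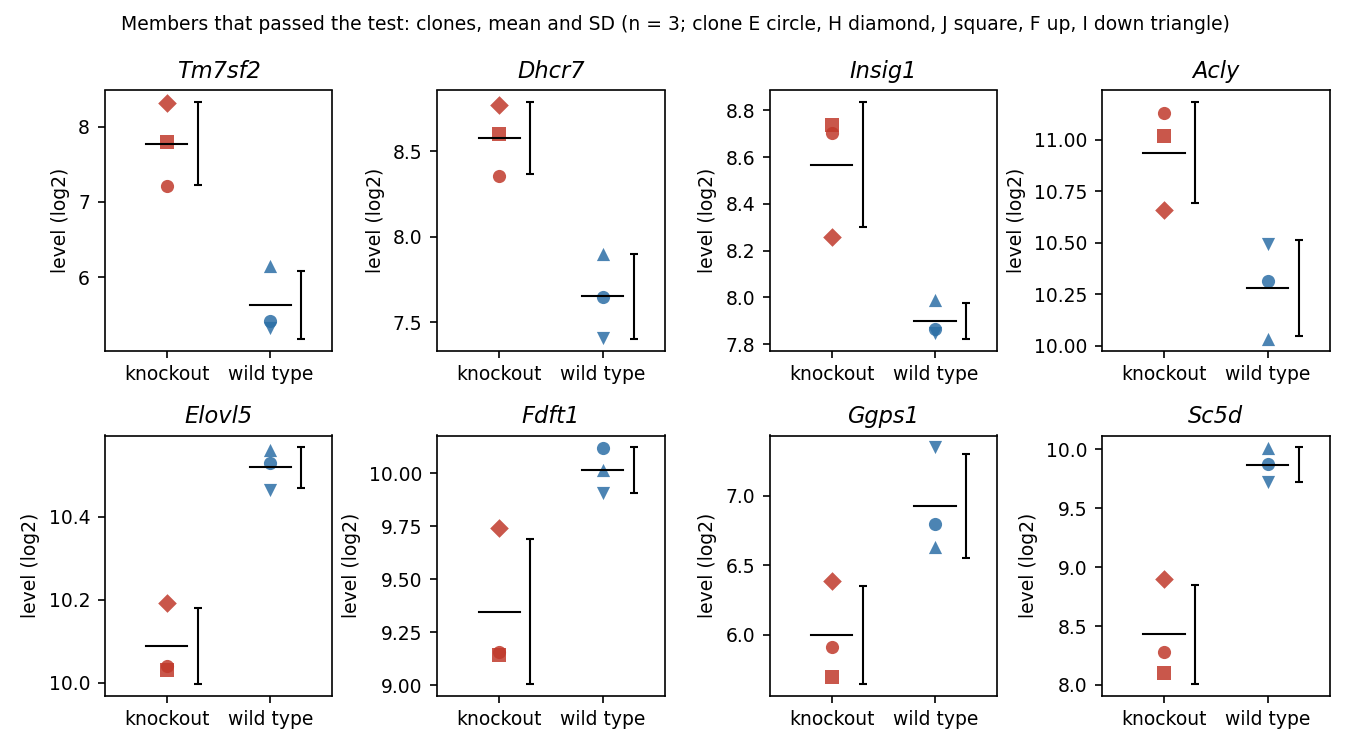
Log2 level (vertical axis, scaled per gene and not from 0) of the 8 genes that passed the limma test, knockout clones left and wild type clones right. Symbols are clones, lines the mean of each genotype and bars its SD (n = 3). Values of the genotypes do not overlap in any of the 8, and clone H lies nearest the wild type values in Insig1, Acly, Sc5d, Ggps1, Fdft1 and Elovl5.

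In the fatty acid arm, Acly rose and Elovl5 fell, and 9 of 11 genes did not pass. Acly, which releases acetyl-CoA from citrate in the cytosol, was read at 11.13 (clone E), 10.66 (H) and 11.02 (J) in knockout cells, against 10.31 (E), 10.03 (F) and 10.50 (I) in WT cells. All knockout clones lay above all WT clones, with clone H closest to them. Acly rose by 0.66 (SE 0.18, limma adjusted p = 0.0464), and 2 other probe sets of high signal differed by 0.62 and 0.81. The call was lost with arrays centred on their medians (0.58, adjusted p = 0.0618) and with probe sets averaged (0.40, adjusted p = 0.0685). That average includes probe sets near the floor (mean levels 2.84, 2.44 and 2.35), which differed by -0.10, 0.04 and 0.34. The call held without clone H (0.79, adjusted p = 0.0140), and not without any other clone (adjusted p = 0.0614 to 0.140).

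Fasn, the synthase that builds palmitate, was read at 9.98 (clone E), 9.26 (H) and 9.94 (J) in knockout cells, against 9.12 (E), 9.05 (F) and 9.20 (I) in WT cells. Knockout clones E and J lay well above the WT values, while clone H lay just above the highest WT clone. The difference was 0.60 (SE 0.21, limma adjusted p = 0.0940), and 0.84 without clone H (adjusted p = 0.0032). Acaca, the carboxylase that makes malonyl-CoA for Fasn, was read at 8.39 (clone E), 8.14 (H) and 8.37 (J) in knockout cells, against 8.11 (E), 8.19 (F) and 8.02 (I) in WT cells. Its clones overlapped, and the interval of its difference of 0.20 ran from -0.08 to 0.47. Acss2, which makes acetyl-CoA from acetate, was read at 6.74 (clone E), 7.57 (H) and 7.03 (J) in knockout cells, against 6.15 (E), 6.64 (F) and 5.16 (I) in WT cells. Every knockout clone lay above every WT clone, but WT clones spread widely, with clone I lowest. The difference of 1.13 had an interval of 0.17 to 2.10 and a limma adjusted p of 0.102.

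Elovl5, which lengthens polyunsaturated chains, was read at 10.04 (clone E), 10.19 (H) and 10.03 (J) in knockout cells, against 10.53 (E), 10.56 (F) and 10.47 (I) in WT cells, with knockout clones closely grouped below WT clones. It fell by 0.43 (SE 0.10, limma adjusted p = 0.0274), and its other probe set differed by -0.51. The call was lost without any single clone other than clone H (adjusted p = 0.0640 to 0.0979), and held without clone H (-0.48, adjusted p = 0.0189). The remaining elongases and desaturases did not pass. Scd1 and Scd2, the desaturases that make oleate and palmitoleate, were both highest in clone H (10.90 and 12.34). Scd1 spanned 10.33 to 10.90 in knockout cells and 9.98 to 10.56 in WT cells, and Scd2 spanned 11.68 to 12.34 in knockout cells and 11.67 to 11.87 in WT cells, so both overlapped, with differences of 0.24 and 0.17. Elovl6, which lengthens palmitate, spanned 8.93 to 8.95 in knockout cells and 8.69 to 8.87 in WT cells, without overlap, and differed by 0.13 with an interval of -0.10 to 0.37, while Elovl1, which makes very long chains, overlapped and differed by -0.16. Fads1 and Fads2, the desaturases of polyunsaturated chains, were likewise mixed between genotypes. Fads1 spanned 9.64 to 10.34 in knockout cells and 9.81 to 10.43 in WT cells, and Fads2 8.88 to 9.75 in knockout cells and 8.99 to 9.84 in WT cells, with differences of -0.14 and -0.03. Of these 6, the interval of Elovl6 alone lay within 1.5-fold either way.

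Among the 5 regulators, Insig1 rose and the rest did not pass. Insig1, which retains Scap in the endoplasmic reticulum and is itself an SREBP target, was read at 8.70 (clone E), 8.26 (H) and 8.74 (J) in knockout cells, against 7.86 (E), 7.99 (F) and 7.85 (I) in WT cells. All knockout clones lay above all WT clones, clone H by the least. Insig1 rose by 0.67 (SE 0.15, limma adjusted p = 0.0286). Without clone H the difference was 0.82 (adjusted p = 0.0035), and without any other single clone the adjusted p was 0.0687 to 0.0973. Insig2, its relative with the same retaining role, was read at 8.02 (clone E), 8.03 (H) and 8.09 (J) in knockout cells, against 8.19 (E), 8.34 (F) and 8.54 (I) in WT cells. Here every knockout clone lay below every WT clone, and the difference was -0.31 (limma adjusted p = 0.121).

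Srebf2 was read at 9.98 (clone E), 9.83 (H) and 9.63 (J) in knockout cells, against 10.03 (E), 10.17 (F) and 10.19 (I) in WT cells. All knockout clones lay below all WT clones by a small margin, with a difference of -0.32 (SE 0.12, limma adjusted p = 0.131). Srebf1 was read at 7.54 (clone E), 8.74 (H) and 7.56 (J) in knockout cells, against 7.57 (E), 7.84 (F) and 7.60 (I) in WT cells. Only clone H stood above the others, so the difference of 0.27 with all clones was -0.12 without it. Scap was read at 9.63 (clone E), 10.47 (H) and 9.71 (J) in knockout cells, against 10.16 (E), 10.34 (F) and 10.49 (I) in WT cells. Clones E and J lay below the WT range and clone H lay inside it, close to the highest WT clone. The difference was -0.40 (limma adjusted p = 0.305), and -0.66 without clone H (adjusted p = 0.0145). For sterol transport, Stard4, a carrier of cholesterol between membranes, was read at 7.75 (clone E), 6.81 (H) and 7.31 (J) in knockout cells, against 8.06 (E), 7.96 (F) and 7.63 (I) in WT cells. Clone H was the lowest here, and the difference was -0.59 (limma adjusted p = 0.157). Abca1, the pump that exports cholesterol, spanned 8.69 to 9.51 in knockout cells and 9.16 to 9.58 in WT cells. The genotypes overlapped, with a difference of -0.28.

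**Figure D3:**
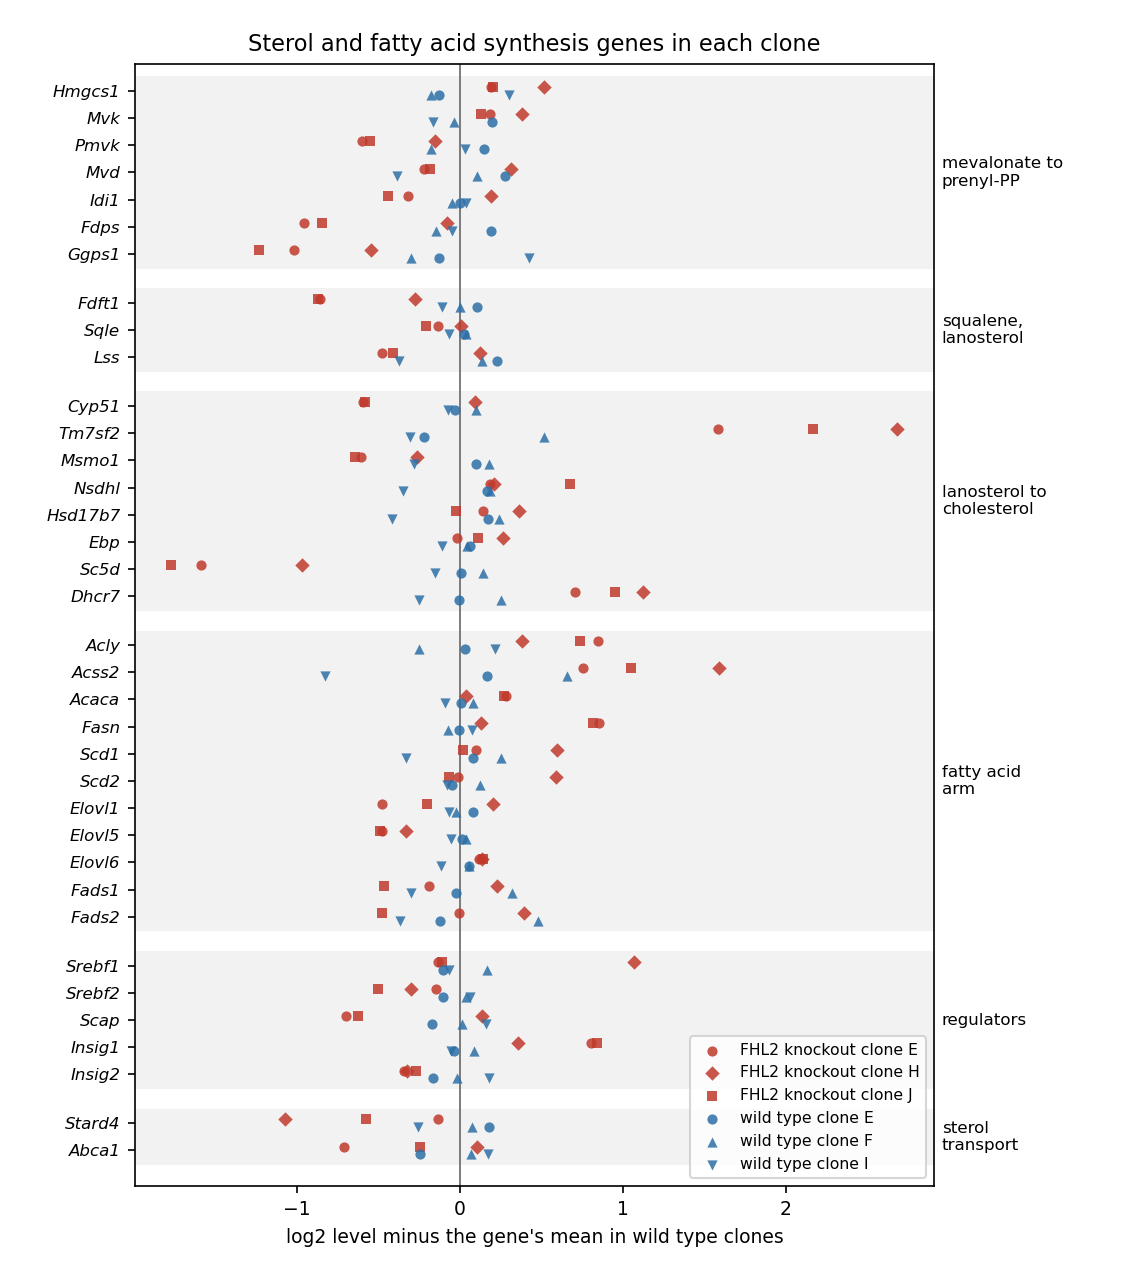
Log2 level of each clone minus the gene's wild type mean (horizontal axis) for the 36 measured genes, which run down the page by role. Knockout clones are red and drawn above the blue wild type clones. In the sterol arm, knockout clones E and J share low values in many genes where clone H does not.

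Set against each other, the arms had medians of -0.15 (sterol, 18 genes) and 0.17 (fatty acid, 11 genes), beside 0.04 over all genes. Within the sterol arm, 2 genes rose and 3 fell (27.8%, beside 19.0% of all genes), with 7 differences above 0 and 11 below. The medians by stage were -0.19 for the 7 mevalonate genes, -0.25 for the 3 genes from squalene to lanosterol and 0.14 for the 8 genes beyond lanosterol. Within the fatty acid arm, 1 gene rose and 1 fell (18.2%), with 7 differences above 0 and 4 below. The arms were compared by their values alone, with no test.

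The gap between the arms was clearest in knockout clones E and J. As deviations from the WT mean, the sterol arm median was -0.27 (clone E), 0.16 (H) and -0.31 (J) in knockout cells, against 0.08 (E), 0.08 (F) and -0.13 (I) in WT cells. The fatty acid arm median was 0.10, 0.23 and 0.02 in the knockout clones, against 0.01, 0.08 and -0.09 in the WT clones. Sterol minus fatty acid, the gap was -0.37, -0.07 and -0.33 in the knockout clones and 0.07, -0.01 and -0.04 in the WT clones. All knockout gaps lay below all WT gaps, and clone H lay near the WT clones. Without clone H, the sterol arm median was -0.29 and the fatty acid arm median 0.06. The fatty acid arm median was 0.08 without WT clone I. The sterol arm median was 0.0011 without probe sets with names ending in _x_at, _s_at or _a_at. That setting left out Pmvk. It read Lss, Mvd and Hsd17b7 by other probe sets, with mean levels of 5.84, 7.19 and 7.82. Their differences were 0.02, 0.08 and 0.0011 there, against -0.25, -0.03 and 0.16 with the probe sets used. Msmo1 was read by a probe set of low signal (mean level 3.28, against 10.25 for the one used) and stayed below 0 (-0.20, against -0.50). Whether cross-hybridization had a part in the sterol median was not tested.

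**Figure D4:**
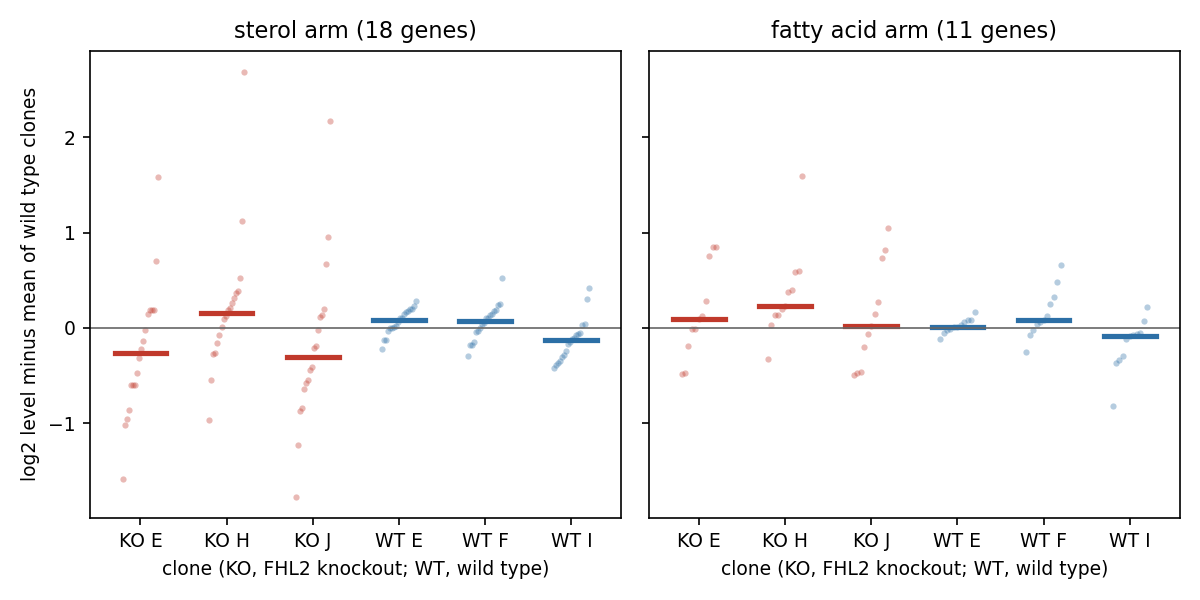
Log2 level minus the wild type mean (vertical axis) of each gene (points) and the arm median (thick lines) in each clone, sterol arm and fatty acid arm, knockout clones left and wild type clones right. The sterol median is -0.27 and -0.31 in knockout clones E and J and 0.16 in clone H.

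Clone H differed from the other knockout clones across the sterol arm and much of the fatty acid arm. It was the highest knockout clone in 17 of 18 sterol genes and 7 of 11 fatty acid genes, compared with 35.3% of all genes. Its level minus the mean of clones E and J had a median of 0.47 over the sterol arm, 0.54 over the fatty acid arm and -0.03 over all genes. Clones E and J both lay below every WT clone in 10 of 18 sterol genes (55.6%, against 24.4% of all genes) and in 2 of 11 fatty acid genes. Both lay above every WT clone in 3 of 18 sterol genes and in 5 of 11 fatty acid genes (45.5%, against 30.2% of all genes). Clones E and J were close to each other, with a median absolute difference of 0.09 over the sterol arm and 0.15 over all genes. Genes of an arm are not independent replicates, and these counts describe the 6 clones.

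More genes passed when clone H was left out of the fit. Of the 36 genes 5 then rose (Tm7sf2, Dhcr7, Insig1, Fasn and Acly) and 10 fell (Idi1, Fdps, Ggps1, Pmvk, Fdft1, Cyp51, Msmo1, Sc5d, Scap and Elovl5). That is 41.7%, beside 26.1% of all genes in the same limma fit, where 12.7% rose and 13.4% fell. In the sterol arm 2 genes rose and 8 fell, and in the fatty acid arm 2 rose and 1 fell. This fit compared 2 knockout clones with 3 WT clones, and the clone left out was picked from these same data. Leaving out any other single clone left 2 or 3 of the 36 genes past the threshold.

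Other probe sets of the same genes were read as a check. The 36 genes had 88 probe sets, and 27 of them had more than 1. Of the 52 other probe sets, 40 differed in the same direction as the one used. With every probe set tested, 4 of these others passed in the same direction and 1, for Fdft1, in the opposite one.

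**Figure D5:**
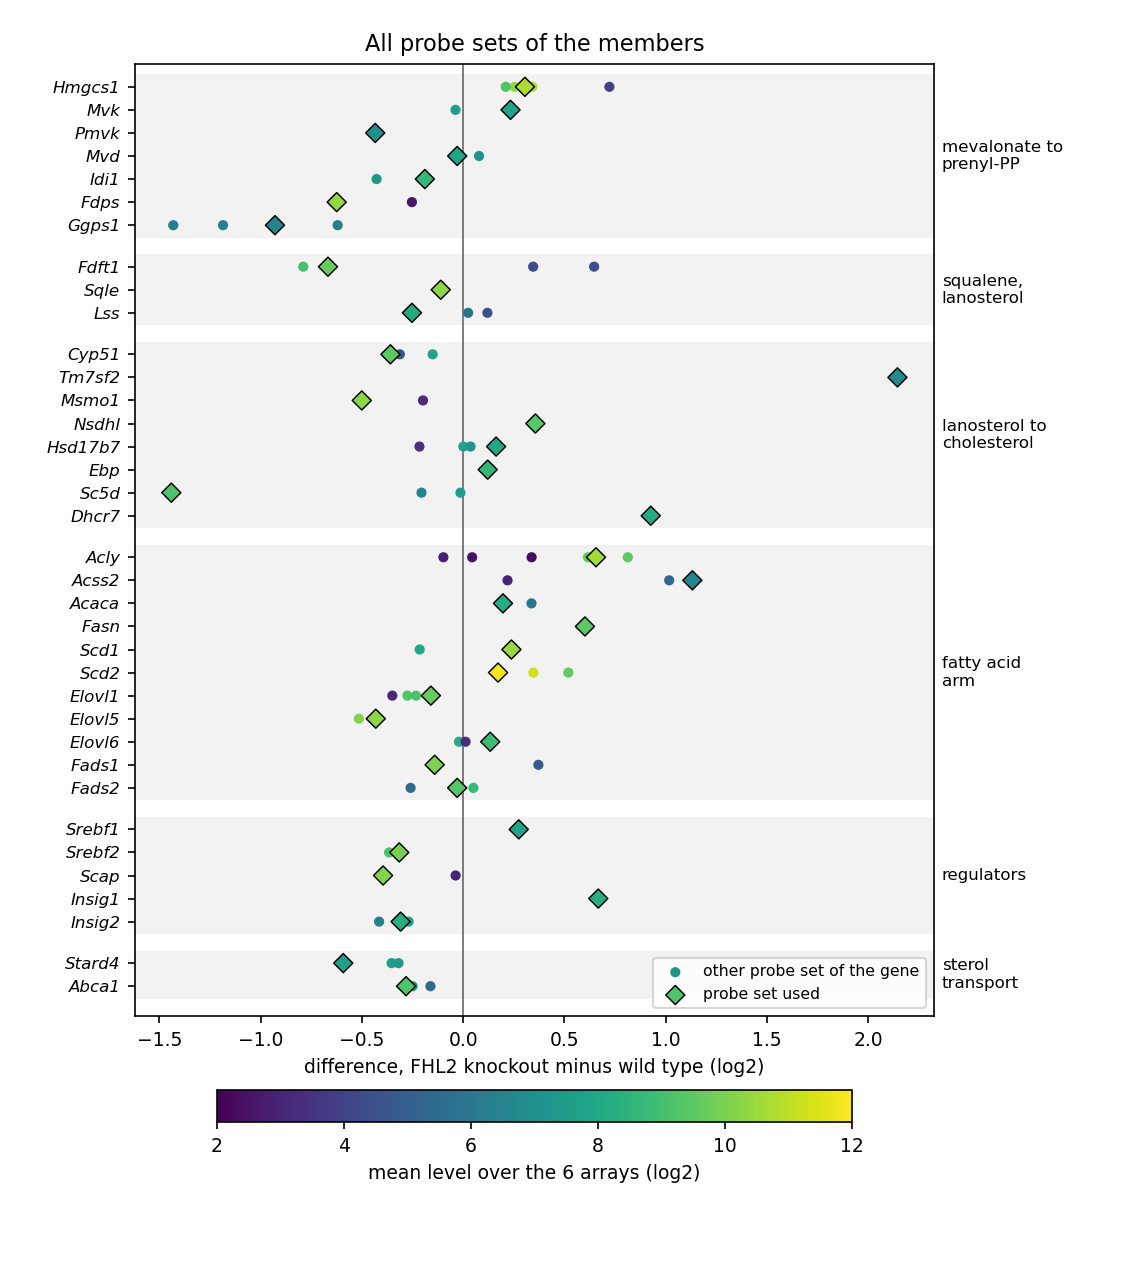
Difference in log2 level, knockout minus wild type (horizontal axis), of all 88 probe sets of the 36 measured genes. Diamonds are the probe sets used, circles the others, and colour gives the mean level over the 6 arrays. The other probe sets of Ggps1 and Elovl5 lie on the same side of 0, while those of Sc5d lie at -0.01 and -0.21 and those of Fdft1 on both sides.

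Genes around the SREBP pathway were counted from further lists in the same fit, where 19.0% of all genes passed (9.04% higher and 10.0% lower). Of 9 measured partners that cut or degrade SREBPs and Insig proteins, 0 passed the limma test, and the median was 0.03. The 3 with the smallest unadjusted p were the ubiquitin ligases Syvn1 (0.50) and Rnf139 (0.47) and the membrane protein Ubxn8 (-0.56). Of these, Ubxn8 fell without clone H (-0.69, limma adjusted p = 0.0239). Of 10 measured further SREBP targets and sterol enzymes 1 rose and 2 fell (30.0%), with a median of -0.03. Lpin1, a phosphatidate phosphatase, rose by 0.67 (limma adjusted p = 0.0246). Me1, malic enzyme, fell by 1.02 (limma adjusted p = 0.0281), and Mid1ip1, an activator of acetyl-CoA carboxylase, fell by 1.32 (0.0138). Lpin1 passed in 1 of the 6 fits that left out a clone, Me1 in 3 and Mid1ip1 in 4.

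The branches that use prenyl diphosphates had 1 gene that rose and 1 that fell of 9 measured (22.2%, beside 19.0% of all genes), with a median of -0.40. Fntb, the beta subunit of protein farnesyltransferase, rose by 0.84 (limma adjusted p = 0.0147), and Icmt, which methylates prenylated proteins, fell by 0.65 (0.0130). Each passed in 4 of the 6 fits that left out a clone. Among 11 measured LXR receptors, their targets and genes of oxysterols, 1 rose and 1 fell (18.2%, beside the same 19.0%), with a median of 0.20. Ch25h, which makes an oxysterol that holds SREBPs inactive, was read at 4.67 (clone E), 6.19 (H) and 5.90 (J) in knockout cells, against 7.81 (E), 7.73 (F) and 7.40 (I) in WT cells. All knockout clones lay below all WT clones by more than 1 log2 unit, and Ch25h fell by 2.06 (limma adjusted p = 0.0160, passed in 4 of 6 such fits). Cyp46a1, a cholesterol hydroxylase best known from neurons, rose by 0.88 (limma adjusted p = 0.0155, also in 4 of 6) at a low level.

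Of 11 measured genes of cholesterol uptake, storage and trafficking 2 rose and 1 fell (27.3%, beside 19.0% of all genes), with a median of 0.18. Vldlr, a lipoprotein receptor, rose by 0.92 (limma adjusted p = 0.0184) and Cav1, the coat protein of caveolae, by 1.07 (0.0289), while Npc1, which exports cholesterol from lysosomes, fell by 0.93 (0.0427). Of the 6 fits that left out a clone, Vldlr and Cav1 passed in 3 and Npc1 in 1. Among 12 measured partners of fatty acid elongation and desaturation, 0 rose and 3 fell (beside 9.04% of all genes higher and 10.0% lower), with a median of 0.13. Elovl4, an elongase of very long chains, fell by 2.05 (limma adjusted p = 0.00959) and passed whichever clone was left out. Hsd17b12, a ketoacyl reductase of fatty acid elongation, fell by 0.56 (limma adjusted p = 0.0157), and Fads3, a relative of Fads1 and Fads2, by 0.82 (0.0226); they passed in 3 and 2 of the 6 fits. Among 14 genes of glycerolipid synthesis 2 rose and 1 fell (21.4%, beside 19.0% of all genes), with a median of -0.25. Gpam, the first acyltransferase, rose by 1.10 (limma adjusted p = 0.0129) and Pcyt2, of phosphatidylethanolamine synthesis, by 0.84 (0.0104), while Agpat2, the next acyltransferase, fell by 0.68 (0.0340). Pcyt2 passed in 6, Gpam in 5 and Agpat2 in 3 of the 6 fits.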

How the data were processed

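Total RNA of 6 fibroblast clones was labelled with biotin and hybridised to 1-colour Affymetrix arrays, per the labels' protocols. The authors deposited log2 intensities made with RMA, per the submitters' processing notes, with version and settings not given in the sources used here. Wild type clone E carries 9 decimals and the other arrays 3. Of 45101 probe sets, 64 controls, 932 with several gene symbols and 9160 without a name were left out. The 34945 with 1 symbol (34741 matched to RefSeq by gene ID) gave 18193 genes, and where a gene had several probe sets the one with the highest mean was used. The genotypes were compared with limma 3.58.1 (R 4.3.3) on genotype alone, with 4 residual degrees of freedom, a median SE of 0.141, and Benjamini-Hochberg adjustment over all genes at 0.05. No gene was left out for a low level. The number of arrays limits the precision, since arrays give no depth. Intervals are 95% intervals of the fit.

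The members, the further lists and the alternatives were chosen with earlier results of these data known. By rule the text names all members, Fhl2, and of each further list up to 4 genes with the smallest unadjusted p; genes of the marker lists and Xist are named beside what they bear on. Lists are described by counts and medians and were given no test. The fit was repeated with a trended and robust prior, a further quantile normalization, arrays centred on their medians, and genes at or above the median level alone. It was also repeated with probe sets of a gene averaged, all probe sets, array weights, and each clone left out. A further setting left out all probe sets with names ending in _x_at, _s_at or _a_at, whether or not they match other genes. The pipeline was tested on simulated data. Promoters came from the RefSeq table of GRCm38.p6. Figures used matplotlib 3.10.9 (Python 3.11.15).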

Additional observations from a re-analysis of the deposited data

How the results depend on the processing

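Over all genes 3464 passed with all clones, 5876 probe sets passed with every probe set tested, and 1661 (without wild type clone E) to 4750 (without knockout clone H) genes passed with 1 clone left out. Of the 36 measured sterol and fatty acid genes 4 rose with all clones, and 1 to 5 with 1 clone left out. Those that fell numbered 4, against 2 with probe sets averaged, 8 with array weights, and 1 to 10 with 1 clone left out. The cause of these shifts was not tested; the array weight of knockout clone H was the lowest (0.386, others 1.07 to 1.56). The fatty acid arm median of 0.17 ran from 0.059 (without knockout clone H) to 0.23 (without wild type clone F) with 1 clone left out, and was 0.08 without wild type clone I. The sterol arm median of -0.15 ran from -0.29 to -0.06 with 1 clone left out. It was 0.0011 without probe sets with names ending in _x_at, _s_at or _a_at. That setting left fewer genes measured and read several, such as Lss, Mvd and Hsd17b7, by other probe sets. Of the single-gene comparisons under an alternative, 455 kept their side of the threshold, 34 lost the call, 12 gained it, and 0 called differences turned; 7 members that did not pass changed sign (Lss, Hsd17b7, Mvd, Srebf1, Scd2, Fads1 and Fads2). Genes that rose made up 47.5% of all calls, 37.6% with arrays centred on their medians (median over all genes -0.03) and 51.2% after quantile normalization (0.02). No paired analysis was possible because the labels pair no clones between the genotypes. With 4 residual degrees of freedom, a p above the threshold does not show equal levels: the intervals of 6 of the 28 genes that did not pass (Sqle, Ebp, Mvd, Mvk, Acaca and Elovl6) lay within 1.5-fold either way.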

Other observations

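Fatty acid oxidation, which runs opposite to synthesis, had 4 genes that rose and 0 that fell in knockout clones among 14 measured of 16 listed, with a median of 0.25. Over all genes 9.04% rose and 10.0% fell in the same limma fit, with a median of 0.04. These were Cpt1c, Acadvl, Hadha and Hadhb. Acadvl, the first dehydrogenase for long chains in mitochondria, was read at 9.14 (clone E), 9.29 (H) and 9.42 (J) in knockout cells, against 8.55 (E), 8.32 (F) and 8.54 (I) in wild type cells. All knockout clones lay above all wild type clones, and Acadvl rose by 0.81 (limma adjusted p = 0.00790). Hadha and Hadhb, the subunits of the mitochondrial trifunctional protein, each rose by 0.67 (limma adjusted p = 0.00949 and 0.00769). Cpt1c, a relative of the carnitine acyltransferases known mainly from neurons, rose to a mean of 8.90 in knockout cells, against 7.89 in wild type cells (limma adjusted p = 0.00391). All 4 passed whichever clone was left out. Cpt1a, the carnitine acyltransferase that admits long chains to mitochondria, differed by 0.21 (limma adjusted p = 0.730) and was chosen after its values were seen.

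Among 19 genes that control lipid synthesis outside SREBP, 0 rose and 4 fell by the limma test, with a median of -0.06. These 4 are 21.1% of the list, beside 19.0% of all genes. Without knockout clone H 3 rose and 5 fell, where 26.1% of all genes passed. Mtor, the nutrient-sensing kinase, was read at 7.29 (clone E), 7.01 (H) and 7.12 (J) in knockout cells, against 7.88 (E), 7.92 (F) and 7.98 (I) in wild type cells, and fell by 0.79 (limma adjusted p = 0.00654). Usf1, an E-box factor that acts with SREBPs on the Fasn promoter, was read at 5.92, 6.13 and 5.80 in the knockout clones, against 6.66, 6.72 and 6.73 in the WT clones, and fell by 0.75 (limma adjusted p = 0.00862). In both genes all knockout clones lay below all wild type clones, and both passed whichever clone was left out. Prkaa1, a catalytic subunit of AMP-activated kinase, fell by 0.90 (limma adjusted p = 0.0114) and passed in 5 of 6 such fits. Stk11, the kinase that activates it, fell by 0.46 (limma adjusted p = 0.0404) and passed in 1 of 6.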
